A study of Mus musculus with 10 samples.

Results

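Hyaluronan is a long, unsulfated sugar polymer of the extracellular matrix. The synthases Has1, Has2 and Has3 build it at the plasma membrane from UDP-glucuronic acid and UDP-N-acetylglucosamine. Hyal2, anchored at the cell surface, and Hyal1, a lysosomal enzyme, cut it into shorter chains, and Cd44 is its main cell surface receptor. In the mammary gland Cd44 is widely used as a marker in the sorting and description of basal and stem-like cells. The genes described here are those 6, found by symbol among 24000 listed genes, of which 23973 have a unique and intact symbol. They were selected on a measured value, a Has2 level far higher in Bsecs than in luminal cells. That difference is given below as a description, with no test.

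The RNA came from FACS-sorted epithelial cells of the mammary glands of female mice, wild type (WT) or knockout (KO) for the chromatin remodelling subunit Bptf. The titles put 10 libraries into 5 groups of 2: WT luminal, KO luminal, WT myoepithelial (basal), KO myoepithelial, and KO Bsecs, a mammary epithelial population whose name the labels do not expand. All mice, controls included, had received tamoxifen at 15 mg per kg in total. The sources used here do not give the age of the mice, the Bptf allele or the driver of its deletion, and 1 label of the KO luminal libraries names WT mice as their source. The authors' tables hold a single mean column for each group. Whether a column joins both libraries of its group or comes from 1 of them is not stated, so a count below is that of a column, and the differences lack a replicate check.

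Recovered read counts summed to between 2036681 and 3840462 per column, and the ribosomal RNA precursor Rn45s took 9.76% to 32.2% of them, most in Bsecs. The basal columns carry opposite genotype names in different tables and are called here the smaller (2036681 counts) and the larger (2359861 counts) basal column, with no genotype read from them. Bptf, the targeted gene, had 640 counts in WT luminal, 1018 in KO luminal, 420 in the smaller basal, 780 in the larger basal column and 645 in Bsecs, and whole-gene counts do not check a deletion of single exons. Summed over 13 luminal markers, the level was 71566 and 81855 in the luminal columns, 59074 in Bsecs, 4693 in the smaller basal column and 3638 in the larger. Summed over 11 basal markers it was 268 and 790 in the luminal columns, 50002 and 26923 in the smaller and larger basal columns, and 18250 in Bsecs. Few genes carried these sums in Bsecs. The tight junction gene Cldn4 alone was at 40179 there, while Krt18 was at 2633 (18174 in WT luminal), Prlr at 129 (15450 in WT luminal), Elf5 at 1.08 and Kit at 0. Krt8, Cldn3 and Esr1 were also lower, at 727, 24.9 and 65.0, against 5045, 258 and 329 in WT luminal. Other luminal markers kept more of their level. Epcam, Krt19 and Foxa1 were at 6741, 6634 and 234 in Bsecs, against 7725, 8468 and 246 in WT luminal. Krt7 and Pgr were at 1324 and 382, against 2113 and 1000. The basal keratins Krt5, Krt14 and Krt17 were at 3402, 9202 and 5152 in Bsecs, while the contractile genes Acta2, Myh11 and Cnn1 were at 148, 20.6 and 4.34, against 17088, 4730 and 2635 in the smaller basal column. Trp63, another basal marker, was at 103 in Bsecs, against 112 and 386 in the smaller and larger basal columns. Levels throughout are read counts divided by 1 size factor per column over all 5 columns (normalised counts), and their 95% intervals, exact Poisson for levels and exact binomial for folds, cover counting error only. In bulk columns fewer cells of a type and less RNA per cell cannot be told apart.

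The sequences just upstream of the gene starts are shown for the 4 members whose promoter is in the RefSeq table (build GRCm38.p6, not the mm9 build named for the files). They are shown to set side by side the start regions of Hyal1 and Hyal2, which lie close together on chromosome 9 and differed in pattern, and those of Has1 and Cd44. Each line gives the 250 bases before the start, 5′ to 3′ on the gene's strand. Capitals mark matches on either strand to the GC box GGGCGG, the AP-1 motif TGANTCA, the TATA box TATAAA or the CCAAT box CCAAT.
Has1 (chr17:17855189-17855438, minus strand): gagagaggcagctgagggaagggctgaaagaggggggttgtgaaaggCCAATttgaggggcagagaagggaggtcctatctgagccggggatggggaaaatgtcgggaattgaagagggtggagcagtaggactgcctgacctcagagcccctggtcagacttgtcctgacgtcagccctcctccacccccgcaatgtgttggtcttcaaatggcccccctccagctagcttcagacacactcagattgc
Hyal1 (chr9:107576700-107576949, plus strand): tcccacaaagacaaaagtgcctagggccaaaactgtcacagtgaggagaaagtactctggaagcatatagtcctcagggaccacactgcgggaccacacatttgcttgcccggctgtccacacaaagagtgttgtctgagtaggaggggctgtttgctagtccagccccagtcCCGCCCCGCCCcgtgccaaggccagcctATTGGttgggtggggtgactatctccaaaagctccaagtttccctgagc
Hyal2 (chr9:107568913-107569162, plus strand): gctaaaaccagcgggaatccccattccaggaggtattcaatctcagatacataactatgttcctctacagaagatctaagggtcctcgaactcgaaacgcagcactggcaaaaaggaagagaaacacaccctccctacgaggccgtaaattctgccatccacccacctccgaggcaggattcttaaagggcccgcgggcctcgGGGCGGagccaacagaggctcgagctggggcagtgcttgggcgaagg
Cd44 (chr2:102901666-102901915, minus strand): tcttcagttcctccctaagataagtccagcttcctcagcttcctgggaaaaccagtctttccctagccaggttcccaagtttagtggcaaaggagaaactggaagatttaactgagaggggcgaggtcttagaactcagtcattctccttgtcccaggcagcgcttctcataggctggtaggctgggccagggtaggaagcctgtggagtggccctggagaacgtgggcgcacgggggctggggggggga
Hyal1 held 2 GC box matches that share a base and 1 CCAAT box, Hyal2 held 1 GC box, Has1 held 1 CCAAT box, and Cd44 held none of these letters. Over 32851 promoter windows of the same length, 32.7% held the GC box letters, 33.8% the CCAAT box, 12.4% the TATA box and 6.75% the AP-1 letters. The GC content of the 4 windows was 55.6% to 58%, beside a median of 52.4% over all windows. Has2 and Has3 are named only.

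Has2, the synthase best known for the matrix of migrating and developing cells, was the synthase that set the columns apart. It had 1 count in WT luminal and 8 in KO luminal cells, against 967 (smaller basal), 842 (larger basal) and 877 (Bsecs). As levels these were 0.919 (0.0233 to 5.12) and 5.95 (2.57 to 11.7) in luminal cells, 1321 (1239 to 1407) and 833 (778 to 891) in the smaller and larger basal columns, and 951 (889 to 1016) in Bsecs. Both luminal columns were thus far below the other 3, and no interval of a luminal column reached those of the rest. Bsecs had 1079 times the WT luminal value (193 to 42681) and 164 times the KO luminal value (83.1 to 382), the contrast known when the genes were named.

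The Has2 level of basal cells belongs to the same order of size as that of Bsecs. On the common scale the smaller basal column had 222 times (112 to 516) and the larger basal column 140 times (70.7 to 325) the KO luminal level. Bsecs had 1.15 times the larger basal value (1.04 to 1.26) and 0.714 times the smaller (0.651 to 0.783). The ratio to the larger basal column depends on the scale, since with column totals without Rn45s its log2 turned from 0.20 to -0.16. Between the basal columns the smaller was 1.61 times higher (1.46 to 1.77). The p-values for Has2 in the authors' deposited tables were 0.882 and 0.710 for Bsecs against the larger and the smaller basal column, and 0.393 between the basal columns. High Has2 was therefore shared by Bsecs and both basal columns in these data, and the order among those 3 was not settled. Has2os, the antisense gene that shares 182 exonic bases with Has2, had at most 9 counts in any column.

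Has1, a second synthase, lay in the same direction at a much lower level. It had 3 and 4 counts in WT and KO luminal cells, 17 (smaller basal), 86 (larger basal) and 54 (Bsecs). Its levels were 2.76 (0.568 to 8.05) and 2.97 (0.810 to 7.61) in luminal cells, 23.2 (13.5 to 37.2) and 85.1 (68.04 to 105) in the smaller and larger basal columns, and 58.5 (43.97 to 76.4) in Bsecs. The luminal columns were lowest and the larger basal column highest, and the intervals of the larger basal column and Bsecs overlapped. Bsecs had 22.2 times the WT luminal value (7.19 to 111) and 20.2 times the KO luminal value (7.47 to 77.0), from 3 and 4 luminal counts. Between the basal columns the ratio of smaller to larger was 0.277 (0.154 to 0.469), the reverse of Has2. Fibroblasts are another source of Has1 and Has2. Over 11 fibroblast markers, the summed level was 2837 in the larger basal column, 962 and 1242 in WT and KO luminal cells, 632 in the smaller basal column and 534 in Bsecs. No marker of that list was at 0 in the basal columns or Bsecs, while Pdgfrb was at 0 in both luminal columns. In Bsecs, however, Pdgfrb, Pdgfra and Fap were at 1.08, 2.17 and 2.17, below the level of 3 counts there (3.25). Single markers went both ways. Fbln2 was at 140 in Bsecs and at 0 and 2.23 in WT and KO luminal cells. Col6a3 was at 23.8 in Bsecs and at 121 and 205 in WT and KO luminal cells. Dcn alone made up 797 and 1011 of the WT and KO luminal sums. The part of fibroblast RNA in the Has1 and Has2 values was not tested.

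Has3, the third synthase, did not follow the others. It had 41, 27, 30, 38 and 16 counts in WT luminal, KO luminal, smaller basal, larger basal and Bsecs columns. Its levels ran from 17.3 (9.91 to 28.2) in Bsecs to 41.0 (27.6 to 58.5) in the smaller basal column, a ratio of 2.36 between the highest and the lowest column. The intervals of WT luminal (37.7) and both basal columns overlapped closely, and KO luminal (20.1) and Bsecs were the lower pair. Bsecs had 0.480 times the WT luminal value (0.252 to 0.875) and 0.889 times the KO luminal value (0.447 to 1.71). Has3 shares 352 exonic bases with Chtf8 on the opposite strand, read at levels of 102 to 217, and the strand setting of the counting is not given, so reads of the pair over those bases cannot be told apart.

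Per length of exon, the synthase gene with the most reads differed between the lineages. The Has2 values of Bsecs and luminal cells chose the genes, so the shares and percentiles drawn from them are description. The luminal side rests on few counts, 41 and 27 for Has3 in WT and KO, with the Chtf8 overlap given above. Has2 made up 96.4% and 88.8% of the summed Has1, Has2 and Has3 level per kb in the smaller and larger basal columns and 93.5% in Bsecs. In luminal cells Has3 was the largest part, with 87.7% in WT and 60.4% in KO, of a far smaller sum. That sum was 6.73 and 5.21 normalised counts per kb in WT and KO luminal cells, 323 and 221 in the smaller and larger basal columns, and 240 in Bsecs. Ranked per kb among all detected genes of a column, Has2 stood at percentile 2.44 and 18.1 in WT and KO luminal cells and at 97.6 (smaller basal), 97.4 (larger basal) and 96.4 (Bsecs).

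**Figure D1:**
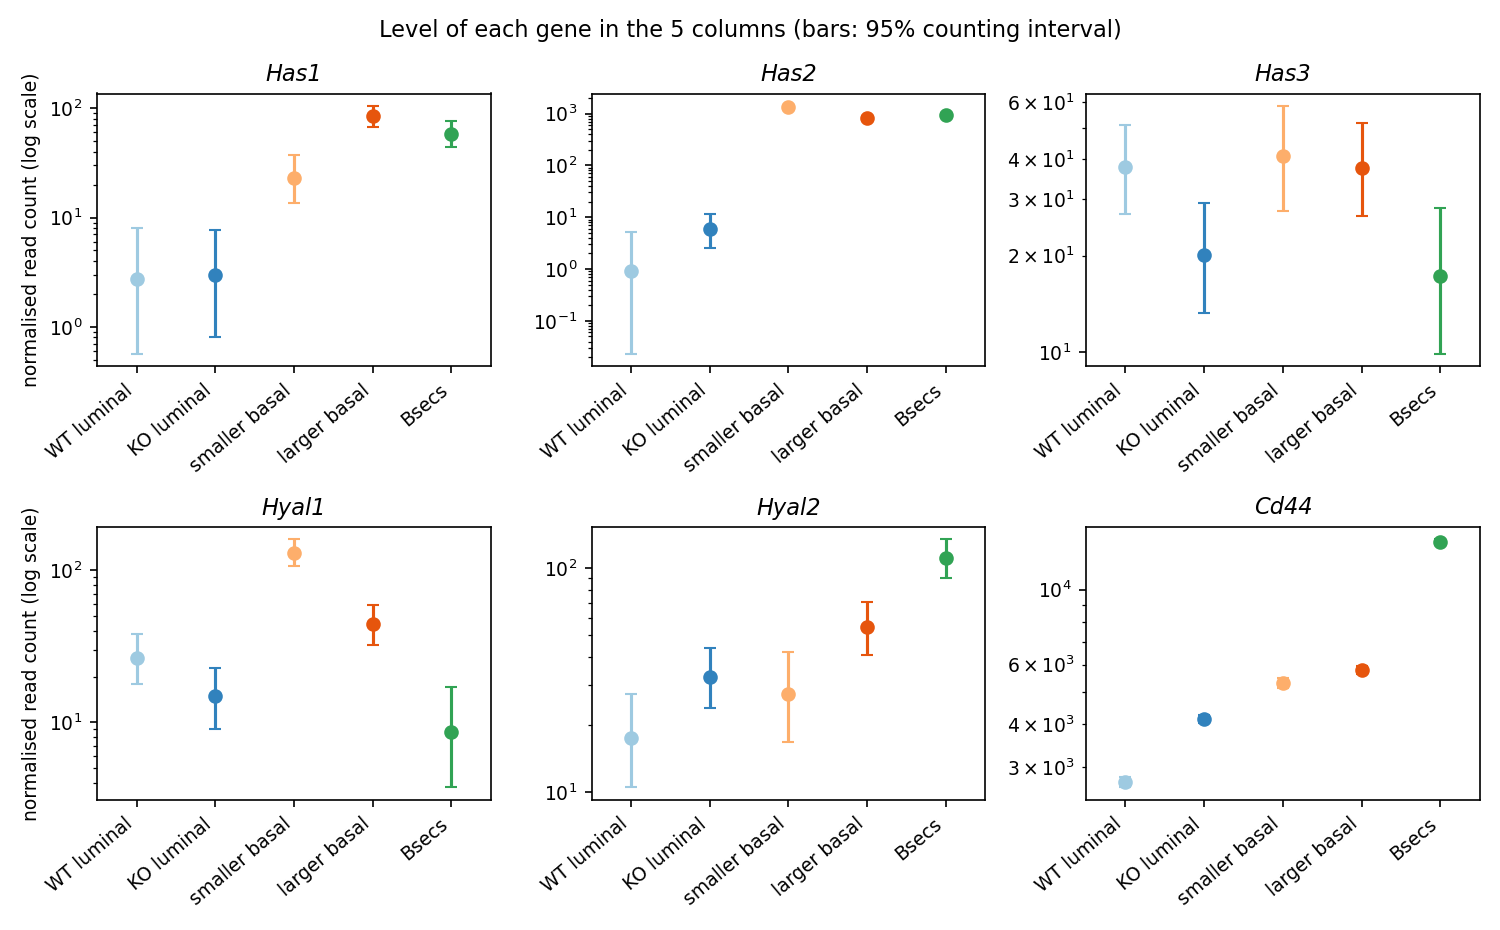
Level of Has1, Has2, Has3, Hyal1, Hyal2 and Cd44 (normalised read count, log axis) in each of the 5 columns, with bars for the 95% counting interval and no replicate error. Has2 sits near 1000 in both basal columns and Bsecs and under 10 in both luminal columns, while Cd44 and Hyal2 peak and Hyal1 is lowest in Bsecs.

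**Figure D2:**
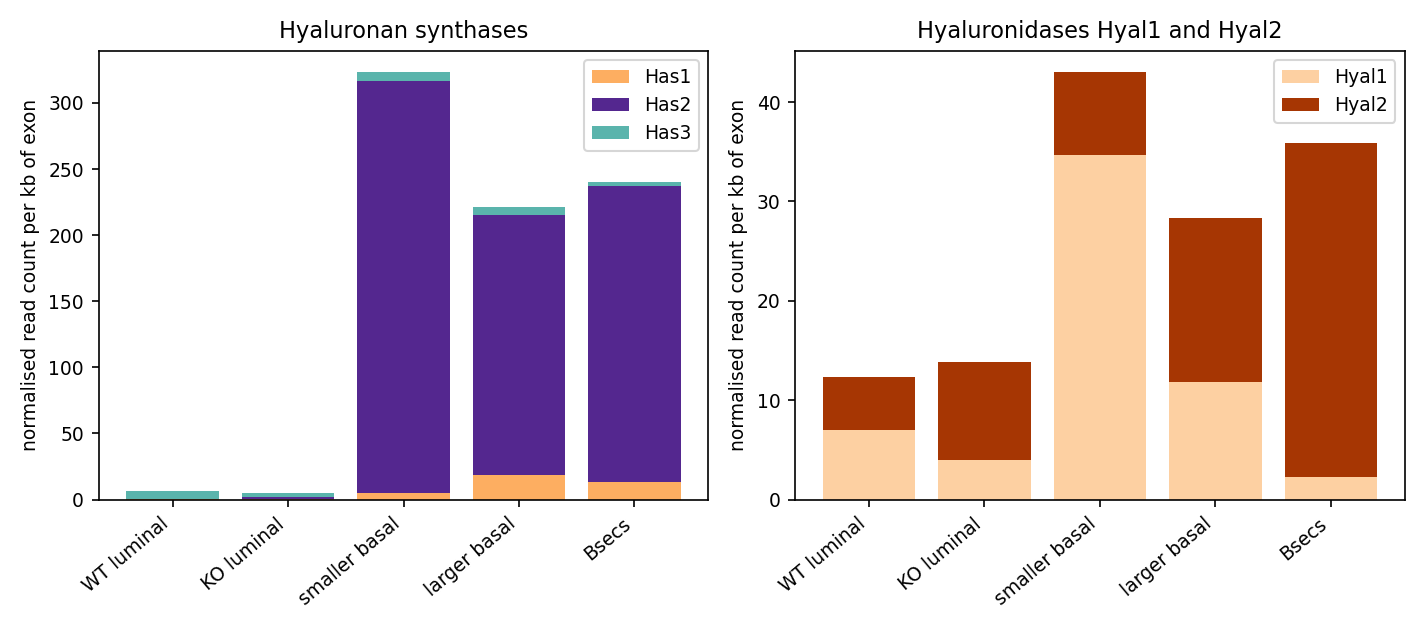
Normalised read count per kb of exon, stacked by gene, for the synthases (left) and for Hyal1 and Hyal2 (right) in the 5 columns. Has2 fills the synthase bars of the basal columns and Bsecs, and Hyal2 fills 93.6% of the hyaluronidase bar of Bsecs against 19.3% of that of the smaller basal column.

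The hyaluronidases went opposite ways. Hyal2, which starts hyaluronan breakdown at the cell surface, had 19 counts in WT luminal, 44 in KO luminal, 20 in the smaller basal, 55 in the larger basal column and 102 in Bsecs. Its levels were 17.5 (10.5 to 27.3), 32.7 (23.8 to 43.9), 27.3 (16.7 to 42.2), 54.4 (41.0 to 70.8) and 111 (90.1 to 134) in that order. Bsecs stood above the other 4 columns with no overlap of intervals, while those of KO luminal cells and the larger basal column overlapped. Its value in Bsecs was 6.61 times that of WT luminal (4.02 to 11.4), 3.48 times that of KO luminal (2.42 to 5.07), 4.02 times that of the smaller basal (2.47 to 6.85) and 2.04 times that of the larger basal column (1.46 to 2.89). None of these passed the adjusted test, with p-values of 0.138 to 0.480 in the authors' deposited tables.

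Hyal1, the lysosomal enzyme, was lowest in Bsecs. It had 29 and 20 counts in WT and KO luminal cells, 96 (smaller basal), 45 (larger basal) and 8 (Bsecs). As levels these were 26.6 (17.8 to 38.3), 14.9 (9.08 to 22.97), 131 (106 to 160), 44.5 (32.5 to 59.6) and 8.67 (3.74 to 17.1). The smaller basal column stood apart above the rest, and the intervals of Bsecs and KO luminal cells overlapped. Hyal1 in the smaller basal column was 15.2 times its value in Bsecs (7.43 to 36.3) and 2.99 times that in the larger basal column (2.08 to 4.36). The larger basal column had 5.11 times the Bsecs value (2.39 to 12.6). Against the smaller basal column the unadjusted p in the authors' deposited table was 0.0319, and the Benjamini-Hochberg adjusted p was 0.818. In the GENCODE annotation 50.8% of the exonic bases of Hyal1 are shared with Naa80, an acetyltransferase gene on the same strand listed in the files as Nat6. Nat6 had 43.2 and 49.8 in WT and KO luminal cells, 73.8 and 28.7 in the smaller and larger basal columns and 13.0 in Bsecs. It too was lowest in Bsecs and highest in the smaller basal column, and how far shared reads enter the Hyal1 values was not tested.

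The balance of Hyal1 and Hyal2 per kb therefore differed between columns. Hyal2 made up 93.6% of their sum in Bsecs, 71.6% in KO luminal, 58.4% in the larger basal, 42.9% in WT luminal and 19.3% in the smaller basal column. The sum itself was 35.9 normalised counts per kb in Bsecs, 43.0 and 28.3 in the smaller and larger basal columns and 12.4 and 13.9 in WT and KO luminal cells. Bsecs thus lay between the basal columns in the sum. Hyal2 was the larger part in Bsecs and in the larger basal column, and Hyal1 in the smaller. How far reads shared with Nat6 enter these parts was not tested. The sum leaves out the other degrading enzymes of the wider list described below, 4 of 10 at 0 in every column. Tmem2, picked from them after its values were seen, was at a level of 269 and 194 in WT and KO luminal cells. It was at 113 and 132 in the smaller and larger basal columns and 185 in Bsecs, above the Hyal2 level in each column. 9930013L23Rik, picked likewise, was at 70.2 in the larger basal column and 1.37 or less elsewhere.

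Cd44, the receptor, was the most abundant member in every column and highest in Bsecs. It had 2949 and 5585 counts in WT and KO luminal cells, 3878 and 5843 in the smaller and larger basal columns and 12745 in Bsecs. Its levels were 2709 (2612 to 2808), 4152 (4044 to 4263), 5296 (5131 to 5466), 5780 (5633 to 5930) and 13814 (13575 to 14056), with no overlap between any pair of intervals. Bsecs had 5.32 times the WT luminal value (5.11 to 5.54), 3.42 times KO luminal (3.32 to 3.53), 2.59 times the smaller basal (2.50 to 2.68) and 2.40 times the larger basal value (2.33 to 2.48). These intervals are narrow because the reads are many, and they hold no variation between mice. In the authors' deposited tables these 4 comparisons had p-values from 0.420 to 0.706, and none passed. Ranked per kb, Cd44 was at percentile 98.6 in WT luminal cells and between 99.1 and 99.7 in the other columns. Leukocytes also carry much Cd44. The summed level of 9 leukocyte markers was 14.1 in Bsecs and 15.8 to 134 elsewhere, with Ptprc, the pan-leukocyte marker, at 2.23 or less in every column. The part of leukocyte RNA in the Cd44 values was not tested. Reads over the whole gene do not separate the variant and standard splice forms of Cd44.

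**Figure D3:**
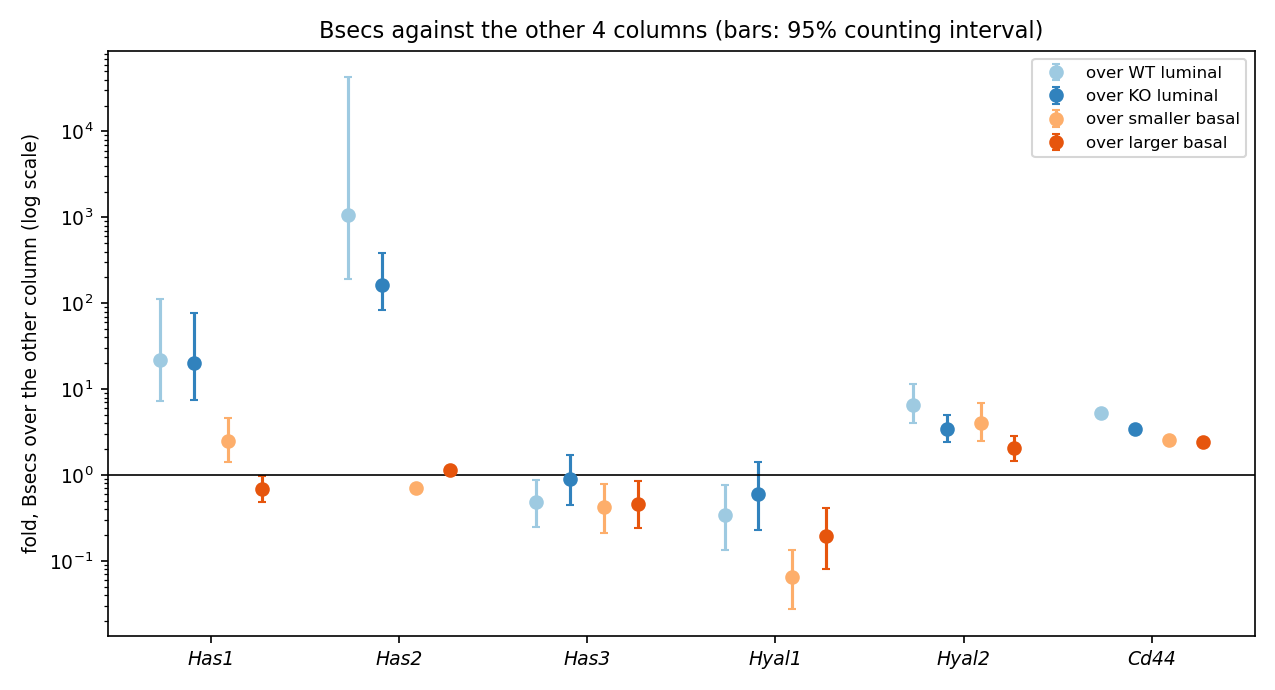
Fold of the normalised value in Bsecs over each of the other 4 columns (log axis), with bars for the 95% counting interval and a line at 1. Hyal2 and Cd44 lie above 1 in all 4 comparisons, with Cd44 between 2.40 and 5.32, and Has3 and Hyal1 lie below 1 in all 4, though the Has3 and Hyal1 intervals against KO luminal include 1.

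Between luminal columns labelled KO and WT, no member passed the test. The counting intervals of Cd44, Hyal2 and Has3 left out a ratio of 1. The share of all genes whose interval did so was not computed, so this is description. None of the 6 members passed an adjusted p of 0.05 after Benjamini-Hochberg adjustment of the p-values that DESeq gave in the authors' deposited table, where 0.0882% of 14736 genes did, and none had an unadjusted p under 0.05 (3.74% of genes). Cd44 was 1.51 times higher in the column labelled KO (1.44 to 1.58) and Hyal2 1.85 times (1.06 to 3.35). Has3 had 0.525 times (0.310 to 0.874) and Hyal1 0.549 times (0.295 to 1.01) the WT value. Has2, at 8 against 1 count, gave a ratio of 6.37 with an interval from 0.855 to 283, and Has1 one of 1.06 (0.180 to 7.25), so neither showed a difference at this depth. None of the 6 was at least 4-fold apart with a mean of 50 or more, where 4.14% of 6975 genes were, and Cd44 alone reached that mean.

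The basal comparison likewise had none of the 6 past the adjusted test, where 0.0274% of 14595 genes passed, and none under 0.05 unadjusted (3.09%). Of 3 members with a mean of 50 or more, none reached 4-fold, where 5.75% of 5700 genes did. Hyal1 was the nearest of these, at the ratio given above. Has1 was further apart, at 0.277 times the larger-column value in the smaller, with a mean under 50. Cd44 was nearly level, at 0.929 times the larger-column value in the smaller (0.892 to 0.968), and Hyal2 was at 0.509 times (0.289 to 0.863).

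Bsecs were set against basal cells in separate tables, which share the Bsecs column. None of the 6 members passed the adjusted test against the larger basal column (0.480% of 14986 genes) or the smaller (0.759% of 13698 genes). None had an unadjusted p under 0.05 against the larger column (4.61% of genes) and 1, Hyal1, did against the smaller (4.91%). By size, none of 4 members with a mean of 50 or more was 4-fold apart from the larger column, where 15.0% of 6090 genes were. Against the smaller column Hyal2 was past 4-fold higher, at 4.02, where 7.05% of 5673 genes were, and Hyal1 past 4-fold lower, where 8.11% were, 15.2% in all. With column totals without Rn45s the log2 fold of Hyal2 there was 1.81 beside 2.01, under 4-fold, and its call was lost. Against luminal cells Has2 is left to the description above, since that contrast chose the genes. None of the other 5 members passed the adjusted test against KO luminal (0.0405% of 14800 genes) or WT luminal cells (0.210% of 14304 genes), and none had an unadjusted p under 0.05 (3.82% and 4.29% of genes). By size, Hyal2 and Cd44 alone of those 5 reached a mean of 50 against KO luminal cells. Neither was past 4-fold, where 16.5% of 6665 genes were. Has1 was past 4-fold higher than in both luminal columns, at the ratios given above, but its mean was under 50. Hyal2 and Cd44 were past 4-fold higher than in WT luminal cells, where 9.21% of 6364 genes were, 18.8% in either direction.

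The rest of the hyaluronan system was described with a list of 63 further symbols, of which 62 matched. They cover makers of the sugar precursors, other degrading enzymes, other receptors, proteins that link hyaluronan into matrix, and partners of Cd44. One passed the adjusted test in 1 comparison, and it was Layn, which encodes layilin, a C-type lectin that binds hyaluronan. Layn had 0 counts in Bsecs and in both luminal columns, against 338 (smaller basal) and 96 (larger basal). With Bsecs placed at a floor of 3 counts, the smaller basal value was 143-fold higher than that of Bsecs. Its adjusted p was 0.00102 (Benjamini-Hochberg adjustment of the authors' deposited p-values). The larger basal value was 29.1-fold higher with the same floor (adjusted p 0.184, same adjustment). Among 46 to 48 of these genes with a p-value, none other passed in any of the 6 tables. Between 0 and 5 a table had an unadjusted p under 0.05, namely 0 in the luminal table, 4 in the basal table, 5 against the larger basal column, 5 against the smaller, 4 against KO luminal and 5 against WT luminal cells. Over all genes with a p-value the shares were 3.74%, 3.09%, 4.61%, 4.91%, 3.82% and 4.29% in that order. For the list, the median log2 fold of values plus 1 was 0.14 for KO over WT luminal cells and -0.88 for the smaller over the larger basal column, beside 0.10 and -0.29 over all genes tested. For Bsecs it was -0.02 over the larger basal, 0.67 over the smaller basal, -0.06 over KO luminal and 0.14 over WT luminal cells, beside -0.21, 0.10, -0.21 and -0.09 over all genes.

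Precursor genes were not high together in the columns with much Has2. Of 12 such genes 4 were highest in a basal column, 6 in a luminal column and 2 in Bsecs, and none passed the adjusted test in any table. No share of all genes by highest column was computed. Uap1, picked after its values were seen, was at 188, 199 and 183 in the smaller basal, larger basal and Bsecs columns. In WT and KO luminal cells it was at 82.7 and 129. Slc35d1, picked likewise, was at 68.3 in the larger basal column and 71.5 in Bsecs, and at 12.9 to 16.4 elsewhere. Ugdh, which makes UDP-glucuronic acid, was at 20.2 and 44.6 in WT and KO luminal cells, 92.9 and 223 in the smaller and larger basal columns and 45.5 in Bsecs. The larger basal column had 4.87 times the Bsecs value (3.49 to 6.94). The Bsecs interval of Ugdh (32.8 to 61.5) overlapped that of KO luminal cells (34.0 to 57.4). It lay above that of WT luminal cells (12.7 to 30.6) and below that of the smaller basal column (72.1 to 118). Gnpnat1, an acetyltransferase on the way to UDP-N-acetylglucosamine, had its highest level in Bsecs, at 96.5 against 14.8 to 39.6 elsewhere, 6.53 times the larger basal value (3.75 to 12.1).

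Among the other receptors, the innate immune receptors Tlr2 and Tlr4, which can respond to hyaluronan fragments, divided the columns differently. Tlr2 was at 732 and 1107 in the smaller and larger basal columns, 115 and 189 in WT and KO luminal cells and 141 in Bsecs. Tlr4 was at 205 and 109 in WT and KO luminal cells, 5.46 and 31.7 in the smaller and larger basal columns and 3.25 in Bsecs, from 3 counts there. Both were thus low in Bsecs, Tlr2 at a luminal and Tlr4 at a basal level, and neither passed the adjusted test in any table. Lyve1, Stab1, Stab2 and Hmmr, the receptors of lymphatic and sinusoidal endothelium and of dividing cells, were at 11.9 or less in every column.

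The matrix linkers had no common pattern. Of 19 linker genes 9 were at 0 in every column, and of the 10 detected 4 were highest in a basal column, 5 in a luminal column and 1 in Bsecs. Of those detected, Hapln3, Hapln4 and Bcan had at most 2, 9 and 11 counts in a column. No share of all genes by highest column was computed. Vcan, the large proteoglycan versican that binds hyaluronan, was at 329 and 823 in the smaller and larger basal columns, 143 in Bsecs, and 0 and 7.43 in WT and KO luminal cells. Ptx3, a pentraxin of the hyaluronan matrix around the oocyte, was at 1405 and 1390 in the smaller and larger basal columns, 231 in Bsecs, and 10.1 and 26.0 in WT and KO luminal cells. Tnfaip6 (TSG-6), which transfers heavy chains onto hyaluronan, was at 38.2 and 309 in the smaller and larger basal columns, 60.7 in Bsecs, and 12.9 and 7.43 in WT and KO luminal cells. These 3 genes had higher levels in Bsecs than in both luminal columns. Against the larger basal column Bsecs were lower 5.73-fold for Vcan (4.76 to 6.94), 5.997-fold for Ptx3 (5.19 to 6.96) and 5.06-fold for Tnfaip6 (3.80 to 6.86). The heavy chain gene Itih5 was highest in luminal cells, with 370 and 573 in WT and KO luminal cells, 10.9 and 139 in the smaller and larger basal columns and 42.3 in Bsecs. Itih2, another heavy chain gene, named after its values were seen, was at 130 and 85.5 in WT and KO luminal cells, 96.5 in Bsecs, and 0 (smaller basal) and 0.989 (larger basal) in basal cells. The hyaluronan-binding protein C1qbp was at 572 in Bsecs and 132 to 379 elsewhere. None of these genes passed the adjusted test in any table. Vcan, Tnfaip6 and Ptx3 are also made by fibroblasts, whose markers summed highest in the larger basal column as given above, and their part was not tested.

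**Figure D4:**
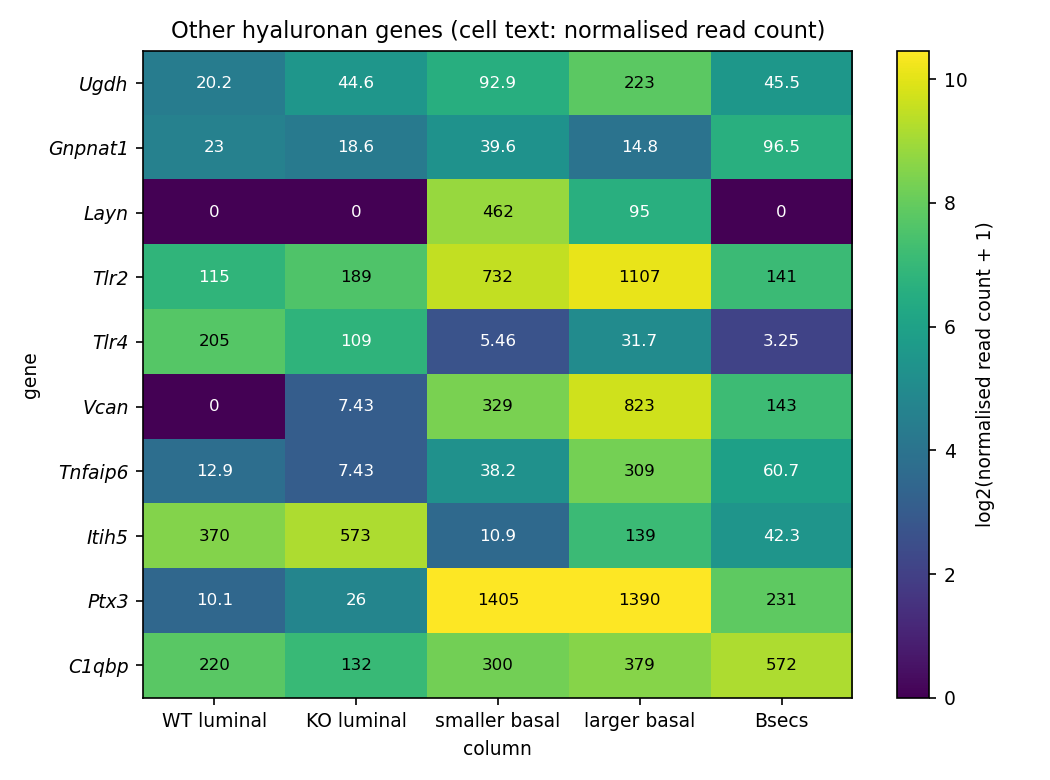
Levels of 10 other hyaluronan genes in the 5 columns, coloured by log2(normalised read count + 1) with the normalised read count written in each cell and no replicate error. Layn is at 0 in Bsecs and both luminal columns, and Vcan and Ptx3 in Bsecs lie between the luminal and the basal columns.

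Partners of Cd44 were read as 14 genes, and none passed the adjusted test. Of these, 3 were highest in a basal column, 7 in a luminal column and 4 in Bsecs, with no share of all genes computed. Ezrin and moesin, which tie the Cd44 tail to actin, differed in pattern. These genes were picked after their values were seen. Msn was at 10951 in Bsecs, 6119 and 5257 in the smaller and larger basal columns and 2961 and 3796 in WT and KO luminal cells. Ezr was at 1586 in Bsecs, 679 and 300 in the smaller and larger basal columns and 2201 and 2446 in WT and KO luminal cells. Msn therefore had the same order of columns as Cd44 at both ends, while Ezr in Bsecs lay between the luminal and basal columns. Rdx, also on the list, was at 397 in Bsecs, 249 and 645 in the basal columns and 375 and 306 in luminal cells. Mmp9 was at 77.0 in Bsecs and at 15.6 or less elsewhere.

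Genes with a level pattern like that of Has2 were named by Pearson correlation of log2(level + 1) over the 5 columns, among 6320 genes with a mean level of at least 50. The 5 closest were Ept1, Jag1, Ajuba, Iars and Axl, with r between 0.9973 and 0.9999. Jag1, a Notch ligand, was at 139 and 230 in WT and KO luminal cells, 1571 and 1391 in the smaller and larger basal columns and 1528 in Bsecs. Axl, a receptor tyrosine kinase, was at 124 and 219 in luminal cells, 3514 and 2669 in the basal columns and 3846 in Bsecs. For Cd44 the closest were Csf2, Snhg3, Nup43, Foxn2 and Slbp, with r between 0.992 and 0.997. Csf2, the cytokine GM-CSF, was at 2.76 and 11.9 in WT and KO luminal cells, 49.2 and 48.5 in the smaller and larger basal columns and 1278 in Bsecs. With 5 points from single columns, 23 genes exceeded 0.99 for Has2 and 6 for Cd44, so these lists describe the columns and no more.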

How the data were processed

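Per the submitters' processing notes, reads were processed with STAR and DESeq on build mm9. Versions, counter, annotation and strand setting were not given in the sources used here. Per the labels' protocols, RNA was extracted in TRIzol and amplified to cDNA with an Ovation kit. Per the file headers, each of 6 tables gives a mean signal per group (read counts divided by a size factor), their ratio (fold) and an unadjusted p-value. Every deposited mean was a whole multiple of 1 step per column (100% of values, within 0.01 of a count), so read counts were recovered. The deposited ratio was not used, since it runs A over B in 2 tables and B over A in 4, nor was the deposited log2 column, which holds spreadsheet errors. There were 0 columns per library and 0 columns of other series.

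Folds were recomputed from the deposited means, with Clopper-Pearson 95% intervals. Benjamini-Hochberg adjustment of the deposited p-values ran over all 13698 to 14986 genes with one, at 0.05. The fold rule was 4-fold at a mean value of 50. Those p-values compare 1 column with 1 column and hold no spread between replicates. Common levels used median-of-ratios factors over 5 columns, without 27 rows whose symbols had become dates. Exonic lengths and overlaps came from GENCODE M21 (GRCm38) and promoters from RefSeq, so lengths may differ from those the authors counted. Reads amplified by PCR and lacking molecular identifiers are no independent molecules, so intervals cover counting error only. Intervals, matching and edgeR 4.0.16 steps were tested on simulated data.

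The members and gene lists were chosen with earlier results of these data known. Named were all members, pathway genes past the test, genes of the precursor, degradation, receptor and linker groups past the fold rule in a Bsecs comparison, and the 5 genes most like Has2 and the 5 most like Cd44, passing over predicted genes, Rik genes and small RNAs. Other genes were picked after their values were seen. Alternatives tried were other scales, fold limits, mean limits and p limits, values plus 1, rank correlation, and edgeR's exact test at a dispersion of 0.16, which was assumed.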

Additional observations from a re-analysis of the deposited data

How the results depend on the processing

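No paired analysis was possible because the tables hold 1 column per group and no value per library, and for the same reason no replicate could be left out. Adjustment over genes with a mean of at least 10, or a limit of 0.1, left every count of genes past the test at its value, for members and for the pathway list. The exact test of edgeR at a dispersion of 0.16, an assumed value, calls 226 to 1976 genes a table and measures no spread. Its share of all genes was 1.53% between the luminal and 2.40% between the basal columns. For Bsecs it was 8.51% against the larger basal, 10.2% against the smaller basal, 11.1% against KO luminal and 13.8% against WT luminal cells. The exact test called 1 member against the smaller basal column (Hyal1, 0 before), 2 against KO luminal (Has1 and Has2, 1 before) and 4 against WT luminal cells (Has1, Has2, Hyal2 and Cd44, 1 before), where the 1 before is Has2, whose luminal contrast chose the genes and is no support. Of the pathway list it called 2 of 46 between the basal columns, 6 of 48 against the larger and 7 of 47 against the smaller basal column, 7 of 46 against KO luminal and 5 of 47 against WT luminal cells, where the main counts were 0, 0, 1, 0 and 0. The fold rule at 2-fold gave 1 member between the basal columns, 2 against the larger and 3 against the smaller basal column, and 3 against KO luminal cells (0, 0, 2 and 1 before). At 8-fold it gave 1 member against the smaller basal column and 1 against WT luminal cells (2 and 3 before). A mean limit of 10 gave 1 against the larger basal column (Hyal1), 2 against KO luminal and 4 against WT luminal cells (Has1 added in both). The counts against luminal cells include Has2, and no share over all genes was computed for these other fold and mean limits. Totals without Rn45s left 1 against the smaller basal column, Hyal1, with Hyal2 lost, and shift every log2 fold of Bsecs by -0.36 against the larger basal, -0.20 against the smaller basal, -0.20 against KO luminal and -0.32 against WT luminal cells. Of 36 log2 folds of members 2 then changed sign, those of Has2 for Bsecs over the larger basal column and of Has3 between the basal columns (0.14 to -0.02), and none did with TMM factors or values plus 1. The lowest and the highest column of each member were the same on all 3 scales, except that Has3 was highest in the larger basal column with totals without Rn45s. The ratio of the highest to the lowest column of Cd44 went from 5.10 to 4.25 with those totals. By rank order, 4 of the 5 genes most like Has2 and 3 of those most like Cd44 had the identical order of columns, as 112 and 125 genes had. Members with under 20 counts in a column, such as luminal Has1 and Has2 and Hyal1 in Bsecs, are limited by depth.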
